A study of Rattus norvegicus with 19 samples.

Results

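The Dlx genes of the rat are described here: Dlx1 and Dlx2 on chromosome 3, and Dlx5, the member of the Dlx5/Dlx6 pair with entries, on chromosome 4. The members were taken by gene symbol, as every entry of the deposited table that pairs a transcriptionally active putative enhancer (TAPE) with Dlx1, Dlx2, Dlx5 or Dlx6. The symbols of 3 of the 4 genes were found, among 17715 symbols in the table, and no entry carries the symbol Dlx6, which is not analysed here. The 3 genes account for 92 of 388605 TAPE-gene pairs and for 53 of 27538 TAPEs, of which 39 lie within 1 Mb of the start sites of both Dlx1 and Dlx2 and 14 within 1 Mb of that of Dlx5.

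Dlx genes encode homeodomain transcription factors, which bind DNA through a conserved homeobox-encoded domain, and in mammals they lie as neighbouring, convergently transcribed pairs. In the embryonic forebrain they are switched on in progenitors of the ganglionic eminences, with Dlx1 and Dlx2 acting ahead of Dlx5 and Dlx6, and they are needed for the formation of GABAergic projection neurons of the striatum and for the interneurons that migrate into cortex and hippocampus. Enhancers of these loci are well known, and both pairs also have antisense or overlapping long non-coding RNAs.

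The libraries are directional, paired-end total RNA-seq with ribosomal RNA removed, from primary neurons of embryonic day 18 Sprague-Dawley rats grown for 11 days in vitro. Cultures came from cortex, hippocampus or striatum and received vehicle (Neurobasal media) or KCl, which depolarises neurons, for 1 h. The sample labels give 25 mM as the KCl dose, whereas the text of the series gives 10 mM. There are 19 libraries in 6 groups, with 3 libraries each except for the striatal vehicle group, which has 4 (replicates 2, 4, 6 and 8, beside 1, 5 and 7 with KCl). Libraries of a group are biological replicates per the study's methods, and whether they came from separate animals is not given in the sources used here. The methods give both striatal group sizes the other way round, and the sample titles were followed. Cultures of this kind hold several cell types, and a bulk sample cannot tell fewer cells of a type from less RNA per cell.

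The depth of the libraries, solved from the table, was 46.4 to 72.5 M reads (M, 1000000). These totals are above the read numbers per sample that the study's methods give, and the reason was not tested. A factor shared by all libraries would change the read numbers and the weights of the voom fit but not the folds. The library titled cortex vehicle replicate 3 has a striatal tissue label. It was kept with cortex, its title. Its Dlx1 level, 6.67 reads per M library reads, stood within the range of the other cortical libraries (6.06 to 7.35) and below the lowest striatal one (29.2). Dlx1 is itself tested below, so this is no independent check. The tissue labels were checked with the summed level of 12 markers of glutamatergic neurons of the cortex and hippocampus. It was 701 to 741 reads per M library reads in cortex, this library included. In hippocampus it was 849 to 908 and in striatum 5.58 to 7.78. The summed level of 6 astrocyte markers also moved with region, from 1073 to 1241 in cortex, 1870 to 1974 in hippocampus and 259 to 288 in striatum. The part of these cells in the regional differences below was not tested.

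The table gives TAPE levels per library, and for genes only their correlations with those TAPEs. For 16564 of the 17715 symbols these correlations fixed the gene's pattern over the libraries, and the smallest set of whole reads behind each such pattern was then found, within 0.02 of whole numbers. Gene levels are given here as these recovered reads per M library reads (RPM). They were not divided by gene length, so levels of different genes are not compared. Antisense reads cannot be told apart from reads of the gene, since the strand used for counting genes is not given in the sources used here.

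In the Rn6 build Dlx1 spans chr3:58164931-58169521 on the forward strand, Dlx2 spans chr3:58180088-58181971 on the reverse strand and Dlx5 spans chr4:32387741-32392007 on the reverse strand. The sequence at the start site of Dlx1, the one member with a promoter in the RefSeq table, is shown because the Dlx1 start site is the point from which its TAPE distances were measured. It runs from 250 bases before the start site through the 50 bases from the start site on, which are in capitals, at chr3:76763614-76763913, forward strand, of the GRCr8 build, which differs from the build of the TAPEs.
Dlx1 promoter: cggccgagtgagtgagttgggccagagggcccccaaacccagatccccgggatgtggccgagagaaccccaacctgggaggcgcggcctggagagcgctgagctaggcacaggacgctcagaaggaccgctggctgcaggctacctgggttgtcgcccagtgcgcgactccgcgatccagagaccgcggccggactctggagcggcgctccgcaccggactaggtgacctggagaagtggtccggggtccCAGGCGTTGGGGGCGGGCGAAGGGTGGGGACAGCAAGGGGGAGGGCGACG
The homeodomain core TAATTA was not found in this window on either strand, and 5.36% of 33469 promoters in the table hold it. The same held for TGACGTCA, a site of cyclic AMP response element binding protein (1.83% of promoters), for TGANTCA, the site of AP-1 factors (7.33%), and for TATAAA, the TATA box (14.2%).

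All 3 Dlx genes were higher in striatum than in cortex and hippocampus, by 4.51-fold for Dlx1, 8.71-fold for Dlx2 and 18.6-fold for Dlx5 over cortex when both treatments were averaged. Each gene's lowest striatal library lay above its highest cortical and hippocampal library. Hippocampus was above cortex by less, 1.28-fold for Dlx1, 1.69-fold for Dlx2 and 1.49-fold for Dlx5. KCl raised Dlx5 to 2.11 times its vehicle level in striatum, while Dlx1 there was at 1.04 times.

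Dlx1, which specifies subpallial neurons together with Dlx2 and is needed by interneurons later on, was at 7.02, 7.35 and 6.67 RPM in cortex with vehicle and at 6.06, 6.85 and 6.42 RPM with KCl. In hippocampus it was at 9.0, 7.32 and 7.79 RPM with vehicle and at 9.66, 9.44 and 8.61 RPM with KCl. In striatum it was at 31.4, 29.4, 29.2 and 29.5 RPM with vehicle and at 30.7, 31.9 and 30.1 RPM with KCl. The 7 striatal libraries thus sat close together, apart from all others, and the vehicle and KCl libraries overlapped in each region.

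Dlx2, which is coexpressed with Dlx1 in subpallial progenitors, was at 0.978, 0.772 and 0.98 RPM in cortex with vehicle and at 0.970, 1.67 and 1.68 RPM with KCl. In hippocampus it was at 1.52, 1.43 and 1.56 RPM with vehicle and at 2.50, 1.98 and 2.92 RPM with KCl. In striatum it was at 10.4, 8.38, 8.77 and 10.3 RPM with vehicle and at 12.1, 11.4 and 10.3 RPM with KCl. The KCl libraries stood above all vehicle libraries in hippocampus, whereas 1 of the 3 cortical KCl libraries lay among the vehicle libraries and the striatal groups overlapped.

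Dlx5, which acts after Dlx1 and Dlx2 in differentiating subpallial neurons, was at 1.75, 1.75 and 1.37 RPM in cortex with vehicle and at 1.77, 2.59 and 2.25 RPM with KCl. In hippocampus it was at 2.58, 1.76 and 2.61 RPM with vehicle and at 3.52, 3.14 and 3.43 RPM with KCl. In striatum it was at 22.6, 24.1, 25.4 and 24.3 RPM with vehicle and at 52.4, 50.2 and 49.7 RPM with KCl. The KCl libraries stood above the vehicle libraries in every region, by a narrow margin in cortex and with a wide gap in striatum. These levels rest on 82 to 154 reads of Dlx5 per cortical library and on 1195 to 2776 per striatal library.

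**Figure D1:**
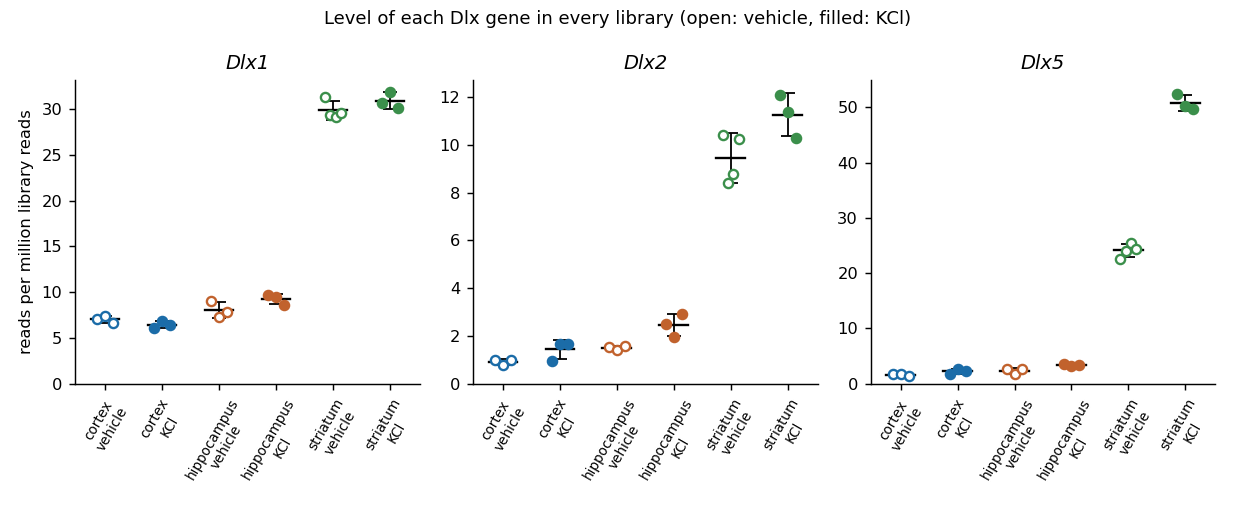
Recovered reads per M library reads (vertical axes) of Dlx1, Dlx2 and Dlx5 by region, 1 point per library, with open points for vehicle, filled points for KCl, and bars for the mean and SD of each group. The 7 striatal libraries of each gene sit above all others, and the 3 striatal KCl libraries of Dlx5 (49.7 to 52.4) sit above the 4 vehicle libraries (22.6 to 25.4).

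The first comparison asked how the regions differ, with both treatments of a region pooled as in the study. In a two-sided exact permutation test on each gene's pattern in SD units over the 19 libraries, with Benjamini-Hochberg adjustment over 16564 genes, all 3 genes were higher in striatum than in cortex, by 2.09 SD for Dlx1, 2.07 SD for Dlx2 and 1.83 SD for Dlx5 (adjusted p = 0.00179 for each). Of all genes, 26.8% were called higher in striatum by that comparison. Against hippocampus the differences were 1.92, 1.88 and 1.78 SD (adjusted p = 0.00149 for each, exact permutation test), where 30.5% of genes were called higher in striatum. Both p-values before adjustment, 0.000583, are the smallest that 7 libraries against 6 can give, so the test cannot rank the members among these many genes.

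On the log2 scale, limma's voom fit of the recovered reads put striatum above cortex by 2.17 (SE 0.06) for Dlx1, 3.17 (SE 0.20) for Dlx2 and 4.14 (SE 0.40) for Dlx5. All 3 were called, as were 35.1% of the 12965 genes tested as higher in striatum. Above hippocampus the differences were 1.82 (Dlx1), 2.40 (Dlx2) and 3.57 (Dlx5), all called, as were 38.4% of genes. Without cortex vehicle replicate 3, the library with the striatal tissue label, the differences from cortex were 2.16 (Dlx1), 3.13 (Dlx2) and 4.04 (Dlx5), again all called. The median gene differed by 0.01 between striatum and cortex.

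Hippocampus and cortex are neighbours in the order of the levels of all 3 genes. Dlx1 was higher in hippocampus by 0.17 SD (exact permutation test, adjusted p = 0.0134) and Dlx5 by 0.05 SD (adjusted p = 0.0463), while Dlx2, with 0.19 SD, missed the threshold (adjusted p = 0.0506). This test called 21.4% of genes higher in hippocampus. In limma's voom fit Dlx1 was higher by 0.35 on the log2 scale (adjusted p = 0.00028) and Dlx2 by 0.77 (adjusted p = 0.008), and Dlx5, with 0.57, was not called (adjusted p = 0.36), where 29.1% of genes were called higher. In these main settings only Dlx1 was thus called by both tests. With vehicle libraries alone its difference was 0.19 in the voom fit and was not called (adjusted p = 0.12). The Dlx5 call was held in 10 of 22 alternatives of the permutation test, and lost without cortex vehicle replicate 3 (adjusted p = 0.078). Other alternatives added calls. In the voom fit Dlx5 was called in 3 of 26, with treatment as a covariate, with KCl libraries only and by limma on log2(RPM + 0.1). Dlx2 was called in all 26 of that fit. In the permutation test Dlx2 was called in 1 of 22, with permutation stratified by treatment (adjusted p = 0.015).

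The second comparison asked what 1 h of KCl changed. Over the 3 regions together, an exact permutation test within regions put Dlx5 higher with KCl by 0.51 SD (adjusted p = 0.00185) and Dlx2 by 0.25 SD (adjusted p = 0.00966). Dlx1 differed by 0.05 SD and was not called (adjusted p = 0.344). Without cortex vehicle replicate 3 the values were 0.51, 0.25 and 0.04 SD with the same calls. Of all genes, 6.05% were called higher with KCl. The 2 members of the Dlx1/Dlx2 pair therefore fell on different sides of the threshold.

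Within regions, limma's voom fit gave the largest KCl effect of a member in striatum, where Dlx5 rose by 1.07 on the log2 scale (SE 0.05, adjusted p = 1e-14) and was called in all 12 alternatives (1.04 to 1.14). Dlx2 rose by 0.25 there (SE 0.09, adjusted p = 0.039), a call lost in 8 of 12 alternatives, among them the fits without striatum vehicle replicate 4, vehicle replicate 6, KCl replicate 1 or KCl replicate 5. Striatal Dlx1, with 0.05 (SE 0.05, adjusted p = 0.50), was not called. In striatum 7.45% of genes were called higher with KCl and 18.5% lower. This balance depended on the scaling of the libraries, with 14.6% higher and 9.06% lower under median ratio scaling, where Dlx2 (0.31) and Dlx5 (1.14) were called and Dlx1 (0.11) was not, as before.

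In hippocampus Dlx2 rose by 0.70 (SE 0.20, adjusted p = 0.032) and Dlx5 by 0.56 (SE 0.17, adjusted p = 0.044), and Dlx1, with 0.20 (SE 0.10, adjusted p = 0.22), was not called, with 4.30% of genes called higher and 7.27% lower (6.28% and 5.55% under median ratio scaling). Leaving out any 1 of the 6 hippocampal libraries ended at least 1 of these calls. In cortex Dlx2 was at 0.68 (SE 0.27, adjusted p = 0.23), Dlx5 at 0.46 (SE 0.20, adjusted p = 0.30) and Dlx1 at -0.12 (SE 0.11, adjusted p = 0.64), none called, with 4.30% of genes called higher and 0.586% lower. Without cortex vehicle replicate 3 they were at 0.74, 0.34 and -0.16, again none called. The cortical and hippocampal estimates of Dlx2 were thus alike in size, and a call in 1 of these regions does not show that they differ.

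**Figure D2:**
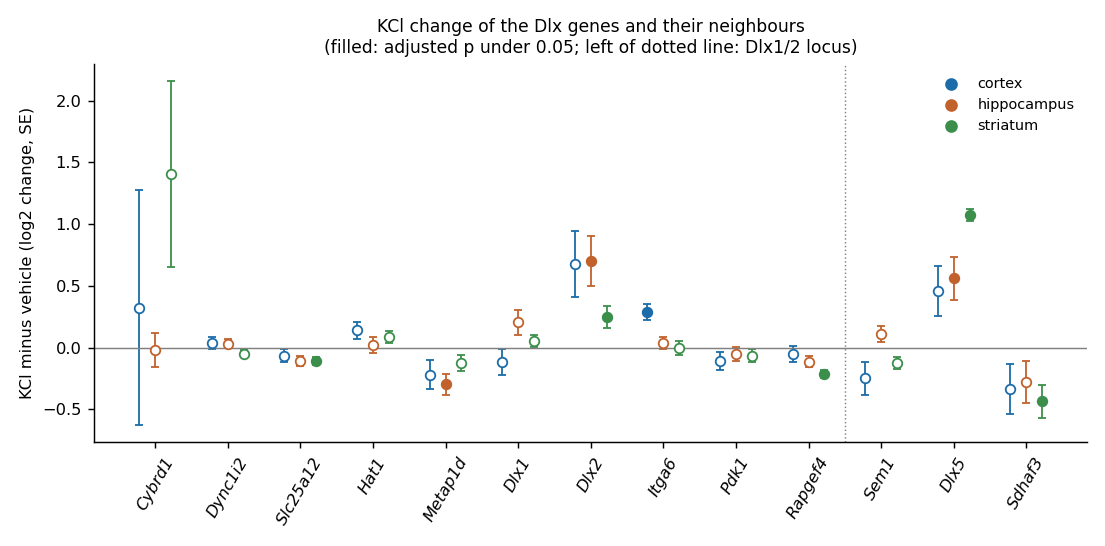
Log2 change from vehicle to KCl (vertical axis, limma voom estimate with its SE as bars) of the 3 Dlx genes and of the genes near them in cortex, hippocampus and striatum, with filled points for adjusted p under 0.05. The striatal change of Dlx5 (1.07) has a short error bar and is called, while that of Cybrd1 (1.41, SE 0.76), a gene near 0 there, is not called.

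A test of the difference of the KCl effect between the 3 regions called none of the members (limma voom, adjusted p = 0.42 for Dlx1, 0.66 for Dlx2 and 0.16 for Dlx5), against 3.71% of genes. For Dlx5 the striatal effect exceeded the cortical one by 0.62 (SE 0.20, adjusted p = 0.15) and the hippocampal one by 0.51 (SE 0.18, adjusted p = 0.21). The difference between striatum and hippocampus was called in 2 of 23 alternatives, with limma adjusted p from 0.011 to 0.55 over the 23. These 2 were limma on log2(RPM + 1), where the joint test was called too, and the fit without hippocampus vehicle replicate 2. The difference between striatum and cortex was called in 1 of 23, limma on log2(RPM + 1), with adjusted p from 0.0017 to 0.39.

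The balance within and between the pairs was compared as the log2 ratio of 2 genes in the same library, in 18 comparisons of genes and ratios in all, none adjusted. In striatum the ratio of Dlx5 to Dlx1 rose by 1.03 and that of Dlx5 to Dlx2 by 0.82 with KCl (two-sided exact permutation test, p = 0.0286 for each, the smallest that 4 against 3 libraries can give). The ratio of Dlx2 to Dlx1 changed by 0.21 there (exact permutation p = 0.114). In cortex and hippocampus Dlx2 over Dlx1 was higher in all KCl than in all vehicle libraries, by 0.75 and 0.49, at the smallest p of 3 against 3 libraries (exact permutation p = 0.1), which cannot reach 0.05. Dlx5 over Dlx2 differed by -0.19 in cortex and -0.14 in hippocampus with overlapping groups.

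The patterns of the members over the 19 libraries correlated at r = 0.987 for Dlx1 and Dlx2, 0.934 for Dlx2 and Dlx5 and 0.903 for Dlx1 and Dlx5, values that are set largely by the gap between striatum and the other regions. The genes of other chromosomes most like Dlx1 were Aldh5a1, Got1 and Pcp4l1 (r = 0.997 each), Gad2 and Syt1 (0.996 each). Among the 5 most like Dlx2 were Nyap2 and Sv2c (0.991 each), Maf (0.989) and Cacng3 (0.988). Gad2 makes GABA from glutamate, Got1 and Aldh5a1 are enzymes of glutamate and GABA metabolism, and Maf is a transcription factor of cortical interneurons.

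The genes most like Dlx5 were Bambi (r = 0.992), Trib2 (0.99), Penk (0.989), Nampt (0.987) and Klhl6 (0.986). None of them was among those nearest to Dlx1 or Dlx2. Penk encodes the precursor of enkephalin, a peptide of striatal projection neurons, and Bambi is a decoy receptor of TGF-beta signalling. They were chosen by r with Dlx5 over these libraries, so their high striatal level and striatal rise with KCl follow from that choice. The rise was 0.80 for Bambi, 0.54 for Trib2, 0.82 for Penk, 0.49 for Nampt and 0.83 for Klhl6 on the log2 scale. Of all genes, 7.45% were called higher with KCl in striatum by limma voom.

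Genes of the pathway were described from lists of transcription factors and markers. Of 28 listed transcription factors 23 had recovered reads and 22 were tested. Lhx8, Nkx2-1, Isl1, Zfp503 and Nr2f2 were not recovered. Of 14 listed interneuron peptides and markers 12 had recovered reads and 10 were tested, and Vip and Erbb4 were not recovered. The GABA genes Gad1 and Gad2, for synthesis, and Slc32a1, for vesicle loading, were higher in striatum than in cortex, by 3.34, 3.59 and 3.15 on the log2 scale. With KCl none of these was called in cortex and Gad1 alone was called in hippocampus. In striatum all 3 rose, Gad1 by 0.24, Gad2 by 0.12 and Slc32a1 by 0.15. Each of these estimates was smaller than that of Dlx5. Of 22 tested transcription factors of the ventral forebrain and interneurons, 14 were higher and 6 lower in striatum than in cortex and 2 were not called (median 1.45), beside 35.1% higher and 33.7% lower of all genes, among them Sp9, a zinc finger factor of striatal neurons, higher by 4.54, and Six3, a homeobox factor, by 8.51. In striatum KCl raised 6 (among them Maf, Prox1 and Sp9) and lowered 6 (Ebf1, Foxp1, Foxp2, Meis2, Rarb and Satb1), and 10 were not called. Of all genes, 7.45% were raised and 18.5% lowered there. Under median ratio scaling KCl raised 10 and lowered 3, beside 14.6% and 9.06% of all genes, so the split depends on the scaling. In cortex KCl raised 4 and lowered 0, beside 4.30% and 0.586% of all genes. The hippocampal counts were 0 and 2, beside 4.30% and 7.27% of all genes. Among 10 tested interneuron peptides and markers, 3 were higher and 5 lower in striatum than in cortex, and KCl raised 3 of them in cultures of cortex, 4 in hippocampal and 4 in striatal ones, with none lowered, beside 4.30%, 4.30% and 7.45% of all genes raised. The other Dlx genes with values, Dlx3 and Dlx4, had 0 to 6 and 0 to 4 reads per library.

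The third comparison turned from the genes to the transcribed regions around them. TAPEs were defined in the study as open chromatin outside annotated genes and their flanks, with reads on both strands. Open chromatin overlapping other contiguously transcribed stretches or known non-coding RNAs was dropped as well. Enhancers within such stretches are therefore not counted here. The level of a TAPE is in CPKM, reads per M library reads and per kilobase of TAPE. The TAPEs of the Dlx loci had few reads. Summed over all 19 libraries, the median TAPE had 13 reads at the Dlx1/2 locus (3 to 132) and 13.5 at the Dlx5/6 locus (4 to 70), beside 14 over all TAPEs. Only 1 of the 53 passed the minimum mean of 0.05 CPKM set for the tests, where 6.79% of all TAPEs did. No TAPE lay within 100 kb of the Dlx5 start, against 7 for the Dlx1/2 locus.

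The TAPE that passed the minimum, chr3:58429282-58431326, is 2045 bp long and lies nearest to the start of Itga6, at 12797 bp. Its 132 reads were split into 29 in cortex, 81 in hippocampus and 22 in striatum. Its level was 0 to 0.074 CPKM in cortex, 0.0758 to 0.138 in hippocampus and 0 to 0.0739 in striatum, so that all 6 hippocampal libraries lay above all others. It passed the minimum only through hippocampus, with a mean of 0.115 there against 0.037 in cortex and 0.028 in striatum, so its regional contrasts describe a TAPE that its high region brought into the test and support nothing further. The order differed from that of the Dlx genes, with hippocampus above cortex by 0.98 (SE 0.25, adjusted p = 0.0061, limma on log2(CPKM + 0.05)) and striatum below hippocampus by 1.15 (difference -1.15, SE 0.24, adjusted p = 0.0003). Region dependence was called for this TAPE and for 48.8% of the 1870 TAPEs tested. Its deposited correlation over the 19 libraries was -0.435 with Dlx1 and 0.814 with Itga6, an integrin subunit that was itself higher in hippocampus than in cortex by 1.02 on the log2 scale.

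KCl did not change this TAPE detectably in any region, with log2 differences of -0.15 in cortex (adjusted p = 0.93), 0.06 in hippocampus (0.94) and 0.39 in striatum (0.59) by limma. Calls over all tested TAPEs were few, at 0.321% in cortex, 0.0535% in hippocampus and 1.23% of them in striatum, and 0.0535% for a difference of the KCl effect between regions, which was not called here either (adjusted p = 0.92). Without a minimum level, none of the 53 TAPEs was called by limma for KCl in a region or for the difference between regions, with lowest adjusted p from 0.71 to 0.82. The shares given above are of TAPEs past the minimum, so this count has no matching share beside it. At these read numbers a KCl effect on single Dlx TAPEs was not detectable.

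Without the minimum level, region dependence was called for 9 of the 53 TAPEs (17%), against 7.36% of all 27538 TAPEs. They were 8 of 39 at the Dlx1/2 locus (20.5%) and 1 of 14 at the Dlx5/6 locus (7.14%). Of the 9, 7 were highest in hippocampus, all on the side of Dlx1 where Itga6 lies and with negative correlations with Dlx1 and Dlx2, and 2 were highest in striatum. For the hippocampal TAPE chr3:58386863-58388731 all 30 reads were from hippocampus, spread over its 6 libraries, and its correlation with Itga6 was 0.902.

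The 2 that were highest in striatum are also the TAPEs most strongly correlated with the Dlx genes. The TAPE chr3:57192173-57193739, 971975 bp from the Dlx1 start, had 4 reads in cortex, 0 in hippocampus and 20 from striatum, spread over all 7 striatal libraries (adjusted p = 0.00566, limma without a minimum level). It correlated at 0.784 with Dlx1, at 0.767 with Dlx2 and at 0.783 with Gad1, a GABA synthesis gene within 1 Mb of it as well. Within the 7 striatal libraries its r was 0.02 with Dlx1 and 0.05 with Dlx2, and within cortex 0.21 and -0.38. Its r with Dlx1 and Dlx2 over all libraries is thus set largely by the gap between striatum and the other regions. The TAPE chr4:32113817-32116035, 277081 bp from the Dlx5 start, had 2 reads in cortex, 0 in hippocampus and 27 from striatum, again in all 7 striatal libraries (adjusted p = 0.0016). It correlated at 0.789 with Dlx5 and at 0.534 with Sem1, a proteasome subunit gene 27326 bp from it. Its striatal reads with vehicle (5, 5, 3 and 2) and with KCl (2, 4 and 6) overlapped, whereas those of Dlx5 did not.

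The TAPEs nearest to the start sites had few reads. That nearest to Dlx1 and Dlx2, chr3:58224608-58227322, lies 61034 bp from the Dlx1 start and 43994 bp from the Dlx2 start and had 7 reads, 5 in cortex, 0 in hippocampus and 2 in striatum. That nearest to Dlx5, chr4:32587991-32589603, lies 196790 bp away and had 12 reads, 4 in cortex, 7 in hippocampus and 1 in striatum. Neither had its highest level in striatum.

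**Figure D3:**
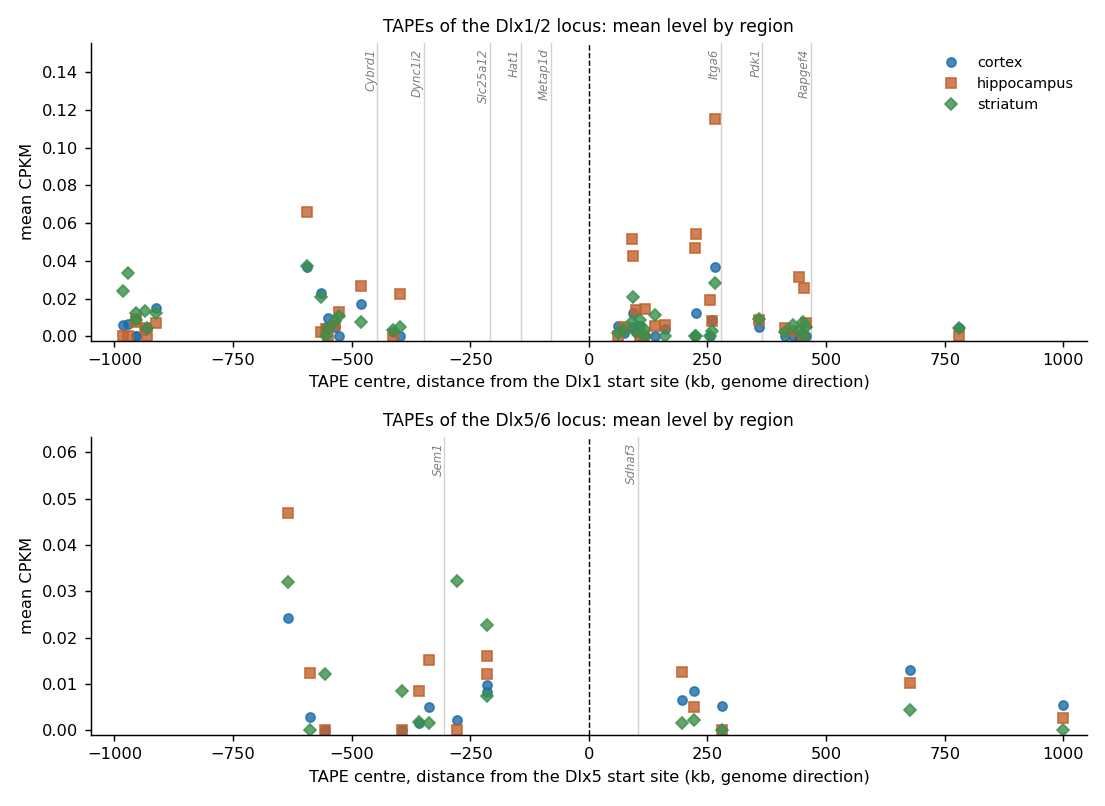
Mean level in CPKM (vertical axes) of the 39 TAPEs of the Dlx1/2 locus and the 14 of the Dlx5/6 locus in each region, against the distance in kb from the start of Dlx1 or Dlx5, with grey lines at the starts of neighbouring genes. The tallest hippocampal points lie near the start of Itga6 rather than at the Dlx genes.

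The study paired TAPEs and genes by the correlation of their levels over all libraries, with 0.5 as threshold. Past it were 2 of 39 pairs of Dlx1 (5.13%), 2 of 39 of Dlx2 (5.13%) and 1 of 14 of Dlx5 (7.14%), close to the 5.30% of all 388605 pairs. The pairs of Dlx1 and of Dlx2 were with the same 2 TAPEs, the one named above and chr3:57181203-57183674. The correlations ran from -0.483 to 0.784 for Dlx1 (median 0.03), from -0.468 to 0.767 for Dlx2 (median 0.05) and from -0.391 to 0.789 for Dlx5 (median -0.17), over 19 libraries that share depth and region. A Dlx gene was the best correlated gene for 5 of the 53 TAPEs, which each had 4 to 18 genes within 1 Mb. It was the nearest gene for 9. The matching shares over all TAPEs were not computed, so neither count is read as a trait of the Dlx genes. Within a single region, over 6 or 7 libraries, 14 of 62 pairs with a value passed 0.5 in cortex, 17 of 68 in hippocampus and 12 of 75 did so in striatum, beside 16.8%, 17.3% and 14.4% of all pairs with a value. Such r from few reads in few libraries are weak.

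**Figure D4:**
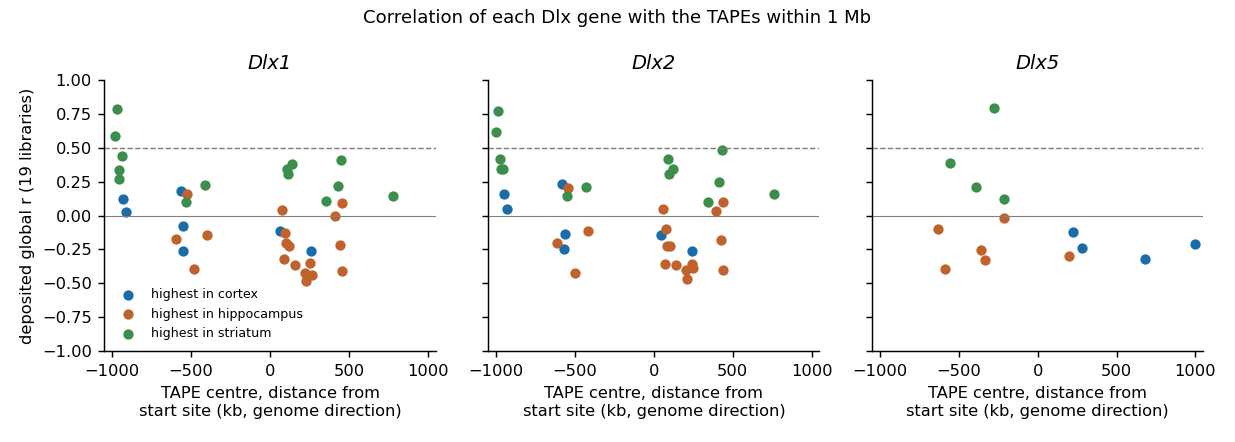
Deposited correlation over 19 libraries (vertical axis) of each TAPE with Dlx1, Dlx2 or Dlx5 against its distance in kb from the gene's start, coloured by the region where the TAPE's mean level was highest. The 5 pairs above 0.5 belong to 3 TAPEs, and the highest of each gene are at 0.784, 0.767 and 0.789.

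Summed over the locus, the 39 TAPEs around Dlx1/2 had a level of 0.00626 ± 0.00195 reads per M library reads and per kilobase in cortex (SD, n = 6), 0.0157 ± 0.00259 in hippocampus (n = 6) and 0.0085 ± 0.00185 in striatum (n = 7). All hippocampal libraries (0.0125 to 0.0195) lay above all others (at most 0.0112). The order of this sum therefore differed from that of the genes, which were highest in striatum. Without the TAPE near Itga6 the hippocampal mean was 0.013 and this separation was lost, with 0.00906 to 0.0163 in hippocampus and up to 0.0114 in striatum. Among the 7 TAPEs within 100 kb the hippocampal libraries ran from 0.00234 to 0.0223 and overlapped the others. The TAPEs chr3:57208829-57210101 and chr3:57209407-57210908, with 10 and 9 reads, overlap each other. Reads in their shared stretch can thus count in both, here and in the counts of TAPEs.

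With KCl the sum over all 39 TAPEs went in opposite directions in 2 regions, which did not hold for other choices of TAPEs. In cortex it was 0.00715, 0.00705 and 0.00916 with vehicle and 0.00367, 0.00574 and 0.0048 with KCl. In striatum it was 0.0067, 0.00766, 0.0077 and 0.00703 with vehicle and 0.0112, 0.00822 and 0.0111 with KCl. The groups did not overlap in either region, lower with KCl in cortex and higher in striatum, and overlapped in hippocampus (0.0125 to 0.016 and 0.0155 to 0.0195). Without the TAPE near Itga6 the striatal groups overlapped (0.00593 to 0.00788 with vehicle and 0.00696 to 0.0114 with KCl). For the TAPEs within 100 kb the cortical direction turned, with means of 0.0036 with vehicle and 0.00527 with KCl. A sum over chosen TAPEs gets no test, and these sums rest on 13 to 47 reads per cortical library and 29 to 45 per striatal library. Without cortex vehicle replicate 3 the cortical mean over both treatments was 0.00568.

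The 14 TAPEs around Dlx5/6 had means of 0.00659 in cortex, 0.0101 in hippocampus and 0.00831 over the striatal ones, with overlapping libraries in the 3 regions. In striatum the sum was 0.00767, 0.0117, 0.00877 and 0.00878 with vehicle and 0.00617, 0.0067 and 0.00835 with KCl. These overlapped, and the mean was lower with KCl, while Dlx5 itself was higher.

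**Figure D5:**
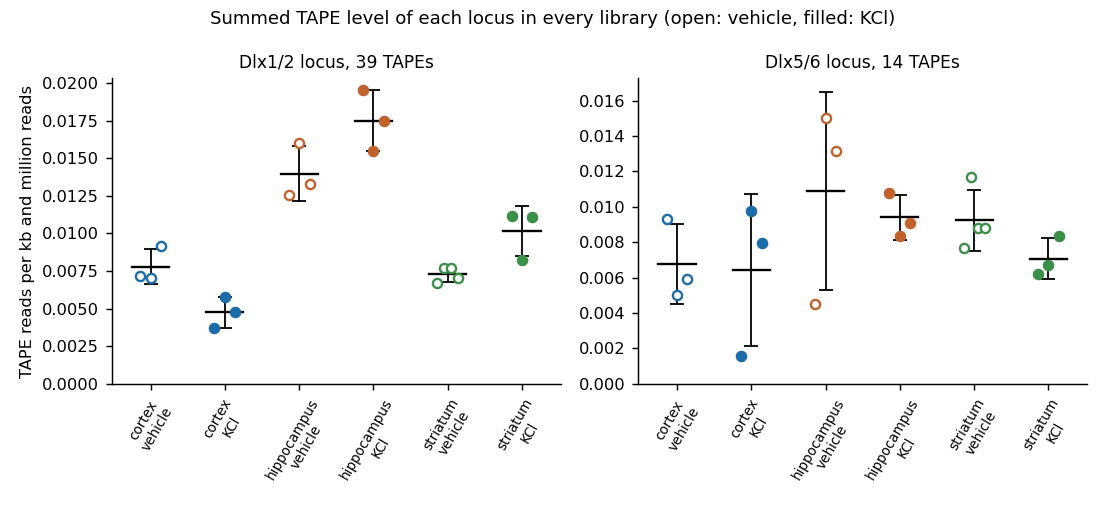
Summed TAPE level of the Dlx1/2 and Dlx5/6 loci (vertical axes, reads per M library reads and per kilobase) by region, 1 point per library, open for vehicle and filled for KCl, with the mean and SD of each group. At Dlx1/2 the 6 hippocampal libraries (0.0125 to 0.0195) sit above all others, and at Dlx5/6 the regions overlap.

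Neighbouring genes were compared with the Dlx genes, as all 8 with a start within 500 kb of Dlx1/2 and both of those near Dlx5. Of the 8 around Dlx1/2, 3 were higher and 3 lower in striatum than in cortex by limma voom, and with KCl in striatum 0 rose and 2 fell, Slc25a12, a mitochondrial carrier, by 0.11 (log2 difference -0.11, adjusted p = 0.012) and Rapgef4, an exchange factor activated by cyclic AMP, by 0.21 (difference -0.21, adjusted p = 3.1e-05). Near Dlx5, Sdhaf3, an assembly factor of succinate dehydrogenase, fell by 0.44 (difference -0.44, adjusted p = 0.02) and Sem1 was not called. Over all genes 7.45% rose and 18.5% fell in striatum, so 0 of 10 higher and 3 of 10 lower are not far from the background. Under median ratio scaling Hat1, a histone acetyltransferase gene, was called higher there and Slc25a12 was no longer called lower. Cybrd1, a ferric reductase, was close to 0 in cortex and striatum and at a mean of 3.81 RPM in hippocampus with vehicle, a pattern unlike that of Dlx1 and Dlx2.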

How the data were processed

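The members and gene lists were chosen with earlier results of these data known. Per the study's methods, the authors trimmed reads with Trim Galore 0.4.5, aligned them to Rn6 with STAR and Ensembl annotation, sorted with SAMtools 1.9 and counted them in SeqMonk. The authors deposited TAPE levels as RPKM (called CPKM), not log transformed, together with Pearson correlations of each TAPE-gene pair, used here as a score from -1 to 1, and distances between TAPE and gene start.

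From the deposited RPKM values whole reads were recovered for 100% of entries (level times TAPE length and library size). Gene patterns were solved from the correlations for 93.5% of symbols, and recomputed correlations of Dlx pairs differed from the deposited ones by at most 1.9e-10. The whole gene reads could be a fixed fraction of the true reads, which would leave folds unchanged but not the voom weights. TAPEs were tested with limma 3.58.1 (trend, log2(CPKM + 0.05), mean of at least 0.05), genes with exact permutation tests on the patterns, both with Benjamini-Hochberg adjustment over the whole table and a threshold of 0.05. The voom fits of recovered reads (mean of at least 10) were chosen after seeing the data. Striatum vehicle and KCl libraries share no replicate number, and in cortex and hippocampus the numbers did not pair the libraries. Tools were R 4.3.3, Python 3.11.15, numpy 2.4.6, pandas 2.3.3 and scipy 1.17.1. Scripts were tested on simulated data. Named were the members, every Dlx TAPE past the minimum, the nearest and best correlated TAPE per member, genes within 500 kb and the 5 genes most like each member. The other TAPEs called without a minimum level were named after their values were seen. Some genes of the lists are not reported here by name.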

Additional observations from a re-analysis of the deposited data

Results flagged for a closer look

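Of 80 values by group checked with Dixon's test, 11 had a library far from the others of its group, and chance alone gives such a library in some groups. Dlx1 in striatum vehicle replicate 2 was at 31.4 RPM, with the other 3 at 29.2 to 29.5. Among the neighbours, Cybrd1 was at 0 in striatum vehicle replicate 6 (others 0.0345 to 0.0403 RPM), Dync1i2 at 263 in cortex KCl replicate 1 (241 to 249), Pdk1 at 27.1 in hippocampus KCl replicate 3 (28.9 to 29.7), Rapgef4 at 95.6 in cortex vehicle replicate 3 (81.9 to 85.9) and Sem1 at 18.6 in cortex KCl replicate 1 (28.2 to 32.5). The striatum-correlated TAPE chr3:57192173-57193739 was at 0.0551 CPKM in striatum vehicle replicate 8, with the others at 0.022 to 0.0257. The TAPE most correlated with Dlx5, chr4:32113817-32116035, was at 0.0132 CPKM in cortex KCl replicate 3 and at 0 in the other 5 cortical libraries. The TAPE nearest to Dlx5, chr4:32587991-32589603, was at 0.0398 in cortex vehicle replicate 1 and at 0.0107 in striatum vehicle replicate 8, with 0 in the others of these regions, the second both among the 4 vehicle and among all 7 striatal libraries.

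The KCl effect on Itga6, near the TAPEs of the Dlx1/2 locus, differed between the regions (limma voom interaction, adjusted p = 0.042). The summed TAPE level of the Dlx1/2 locus moved in opposite directions with KCl, by -0.00305 in cortex and by 0.00287 in striatum, in non-overlapping groups, and that difference was not tested. Without the TAPE of highest mean the striatal groups overlapped, and for TAPEs within 100 kb the cortical mean was higher with KCl (0.00527) than with vehicle (0.0036).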

How the results depend on the processing

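The region calls of the Dlx genes numbered 8 of 9 and 7 to 8 when single libraries were left out, and the KCl calls of the pooled permutation test 2, with 1 by limma on the standardised patterns. For TAPEs, region dependence was called for 1 Dlx TAPE, for 9 without a minimum level, and for 0 with KCl libraries only. A minimum mean of 0.1 CPKM left no Dlx TAPE to test, as the highest mean was 0.058 CPKM. Pairs above 0.5 numbered 5, and 3 above 0.7, 14 within cortex, 17 within hippocampus and 12 within striatum, and 5 to 7 when a library was left out. The summed Dlx1/2 level was 0.0157 in hippocampus and 0.013 without the TAPE of highest mean, and 0.0085 in striatum and 0.00645 for TAPEs within 100 kb.

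In the voom fits, the 2 hippocampal KCl calls became 0 without a minimum read number, 1 with the replicate block and 0 to 1 when a library was left out. The 2 striatal ones became 1 without that minimum, by limma trend with either pseudocount and in a single fit of all groups, and 1 to 2 when a library was left out. No member was called for a difference of the KCl effect between regions, and 1 was by limma trend on log2(RPM + 1). The block, whose pairing is not given by the labels, changed no other call, and no paired analysis was possible in striatum because its groups share no replicate number. No direction of a called value reversed. Low read numbers limit the TAPE results, with a median of 13 reads at the Dlx1/2 locus. Median ratio scaling changed no call of a member.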
